A study of Mus musculus with 147 samples.

Results

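The genes of the GDNF pathway described here are Gdnf, which encodes the ligand, Gfra1 and Ret, which encode its receptor complex, and Bcl6b, Etv5, Etv4 and Lhx1, transcription factor genes known to respond to it in spermatogonia. They were chosen by name, 7 of the 31053 genes of the deposited table of unique molecular identifier (UMI) counts. The cells came from wild-type mice from embryonic day (E) 8.5 to adulthood, males except for early embryos whose sex was not listed. All were the offspring of C57BL/6 females and males carrying the Blimp1-mVenus and Stella-ECFP (BVSC) reporters, so every group shared these transgenes. Single cells were profiled by a modified STRT-seq, a plate method that counts 3′ ends of transcripts. Reporter-positive cells were sorted from whole embryos (E8.5–E10.5), positive and negative cells were sorted from gonads (E11.5–E18.5), and cells with germ cell morphology were picked from postnatal testes. At postnatal day (PND) 30 cells were also sorted by DNA content. Of these, the cells sorted as 1N and as 4N (286 each), only part of the PND30 cells, are compared below. Because of the sorting and picking, the numbers of cells of a class are not their shares in the tissue, and somatic cells after birth are only those that were picked along with germ cells.

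Of 10224 wild-type cells in this range, 9972 had over 2000 genes and 10000 to 1000000 UMIs. They formed 54 pools, each the cells of 1 replicate (several embryos or gonads together before birth, 1 male after it) at 1 of 26 time-points, with 22931469 to 197524235 UMIs per pool (median 41674242). Sex was not given for 567 of the 685 cells of E8.5–E10.5 in the deposited cell table. The study states that male embryos of E10.5 were chosen by PCR for Sry, which the cell table does not list for every E10.5 cell. The stages before E10.5 may hold cells of female embryos. Clusters were named from marker genes, which gave 8416 germ cells, 584 Sertoli-like, 721 interstitial-like and 42 Leydig-like cells. Another 209 cells in 4 clusters led by blood, neutrophil or endoderm genes stayed unnamed and were left out of the main comparisons. Most of them were sorted as reporter-positive, among them 48 cells each of E8.5 replicates 1 and 3 and 45 of E17.5 replicate 1. Ddx4, a germ cell gene, had a median of 396 UMIs per 1000000 UMIs (CPM) over germ cell pools and was lowest at E8.5 (9.58). In the unnamed clusters of 48, 32, 51 and 78 cells it was at 365, 194, 28.4 and 12.6 CPM. These clusters held 6, 6, 6 and 2 of the 7 germ cell markers at 10 CPM or more, so part of these cells may be germ cells. Sertoli-like cells had a median of 463 CPM of Amh, the anti-Müllerian hormone gene, but at E11.5 it was 31.9 and 0 CPM in the 2 replicates, so the name is least sure there. Summed Sertoli cell markers in germ cell pools had stage medians from 27.6 CPM at E11.5–E13.5 to 395 CPM at PND10–PND14, and their part in differences between germ cell stages was not tested. The 96 cell barcodes were each used in more than 1 library and none more than once within a library. With at least 10 cells asked of a sum, 51 pools gave germ cells (27 to 572 cells each), and replicates 1 and 3 of E8.5 and replicate 1 of E17.5 gave none. Values below are CPM of the counts summed over the cells of a class in a pool, and the replicate is the pool.

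GDNF is a secreted factor of the TGF-β superfamily that Sertoli and peritubular cells make in the testis. It binds GFRα1, a receptor held on the membrane by a lipid anchor, which brings it to the receptor tyrosine kinase RET, which then acts through SRC-family kinases, PI3K–AKT and RAS–ERK signalling. In cultured spermatogonial stem cells GDNF raises Bcl6b, Etv5 and Lhx1, and ETV4 and ETV5, ETS-family factors, are also outputs of FGF and ERK signalling in many tissues.

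Among the genes, RefSeq promoter windows (GRCm38.p6, 250 bases before to 50 after a transcription start, written 5′ to 3′ on the gene's strand) were at hand for Gfra1, Etv5, Lhx1 and Gdnf. Where a gene had several windows, 1 is shown. They are shown because the 3 receptor and target genes take different courses in germ cells and Gdnf has its higher level in the soma. Capitals mark CCGGAA, the core letters that ETS-family factors bind (reverse complement TTCCGG), or TATAAA (reverse complement TTTATA), searched on both strands.
Gfra1, chr19:58455349-58455648, minus strand: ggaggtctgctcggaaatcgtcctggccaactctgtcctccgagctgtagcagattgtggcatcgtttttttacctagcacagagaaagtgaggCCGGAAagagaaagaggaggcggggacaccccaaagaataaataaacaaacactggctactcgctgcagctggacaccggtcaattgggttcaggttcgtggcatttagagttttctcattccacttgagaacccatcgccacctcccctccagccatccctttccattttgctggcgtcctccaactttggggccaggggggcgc
Etv5, chr16:22439521-22439820, minus strand: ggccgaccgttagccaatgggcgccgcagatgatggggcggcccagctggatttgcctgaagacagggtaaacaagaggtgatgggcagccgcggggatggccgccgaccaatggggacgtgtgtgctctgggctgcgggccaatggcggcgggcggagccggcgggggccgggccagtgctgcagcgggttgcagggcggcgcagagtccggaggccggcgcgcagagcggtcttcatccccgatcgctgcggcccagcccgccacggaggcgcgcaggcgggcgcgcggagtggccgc
Lhx1, chr11:84525485-84525784, minus strand: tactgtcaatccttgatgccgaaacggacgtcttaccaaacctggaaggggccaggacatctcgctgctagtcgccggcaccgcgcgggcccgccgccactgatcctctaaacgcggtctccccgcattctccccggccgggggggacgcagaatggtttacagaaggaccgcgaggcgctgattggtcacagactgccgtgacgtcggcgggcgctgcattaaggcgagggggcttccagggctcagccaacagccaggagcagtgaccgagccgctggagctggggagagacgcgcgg
Gdnf, chr15:7809798-7810097, plus strand: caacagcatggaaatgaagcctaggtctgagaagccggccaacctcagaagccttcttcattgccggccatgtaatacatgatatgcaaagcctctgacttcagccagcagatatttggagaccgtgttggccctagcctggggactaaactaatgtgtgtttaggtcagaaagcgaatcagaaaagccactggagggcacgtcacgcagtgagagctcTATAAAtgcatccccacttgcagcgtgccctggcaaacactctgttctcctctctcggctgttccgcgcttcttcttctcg
The Gfra1 window held 1 CCGGAA, whose first base is at position 95 of the window, and the Gdnf window 1 TATAAA, at position 220. The Gdnf window shown lies before the start of the annotated gene span given below. The other Gdnf window, chr15:7813477-7813776, held neither run of letters. The Etv5 and Lhx1 windows also held neither. Of 32851 RefSeq promoter windows of this length, 14.9% held CCGGAA on either strand and 13.6% TATAAA. The Etv5 window was 74% G and C, that of Lhx1 65.7%, that of Gfra1 54% and that of Gdnf 51.7%. A match describes these letters only.

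In the soma Gdnf was higher than in germ cells of the same pools, and among somatic cells it was higher in Sertoli-like than in interstitial-like cells. Gdnf lies at chr15:7810846-7837575 on the plus strand (GRCm38, GENCODE M21). Over 33 pools that gave both classes, somatic cells ranged from 0 to 45.8 CPM (median 11.7) and germ cells from 0 to 11.6 CPM (median 0.682). The somatic value was the higher one in 28 of 33 pools, although the ranges overlapped. The difference was 3.60 on the log2 scale (SE 0.52, adjusted p = 1.2e-07, edgeR quasi-likelihood test with the pool as block), in a comparison where 73.6% of 15685 genes passed, 29.6% higher and 44% lower in somatic cells.

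By time-point, Sertoli-like Gdnf stood at 4.40 and 0.928 CPM in the 2 replicates of E11.5 and at 101.8 CPM in the single E13.5 pool. From E14.5 to E17.5 it ranged from 15.8 to 62.4 CPM over 6 pools. After birth it was 20.4 CPM at PND1, 39.3 at PND2, 20.3 at PND4, 13.4 at PND5, 34.1 and 13.9 at PND6, and 12.1 and 17.6 at PND7. The last pools were the low ones, with 11.4 and 0.926 CPM at PND12 and 4.90 and 0 at PND14; the count of 0 allows up to 3.86 CPM in that pool, a limit that covers counting error only. On the log2(CPM + 1) scale the 4 pools of PND12–PND14 were 3.43 below those of E13.5–E17.5 and 2.59 below those of PND1–PND7 (two-sided exact permutation tests, p = 0.0061 and p = 0.0040, both 0.0091 after adjustment over 3 comparisons). PND1–PND7 stood 0.85 below E13.5–E17.5 (exact permutation p = 0.052, adjusted 0.052). These age groups were formed after the values were seen, so the tests describe the drop and do not stand as independent evidence. Amh was at 73–109.3 CPM in those same late pools and at 273–967 CPM in the Sertoli-like pools of E13.5–PND7, while Sox9, another Sertoli cell gene, was at 376–604 CPM late and 221–488 CPM before, and whether the kind of Sertoli-like cell picked late had a part in the drop was not tested.

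Interstitial-like Gdnf ranged from 0 to 26.6 CPM over 27 pools. In the 17 pools with both classes, Sertoli-like cells held 0.928 to 101.8 CPM (median 20.4) and interstitial-like cells 0 to 26.6 CPM (median 3.38). Sertoli-like cells were higher in 15 of 17 pools, the exceptions being replicate 2 of PND4 (20.3 against 26.6 CPM) and replicate 1 of PND14 (4.90 against 6.11 CPM). The difference was 2.41 (SE 0.53, adjusted p = 0.00097, edgeR), where 35.4% of 11435 genes passed, 17.3% higher and 18.1% lower in Sertoli-like cells. It was 0.95 (adjusted p = 0.37) over the pools with at least 20 cells of each class and 2.15 (adjusted p = 0.077) without replicate 1. The difference averaged 2.7 in 9 fetal and 1.36 in 8 postnatal pools, a gap of 1.34 that an exact permutation test over pools did not separate from their spread (p = 0.10). The 40 Leydig-like cells of adult replicate 1 held no Gdnf UMI, which allows up to 0.271 CPM.

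In single cells thinned to 50000 UMIs, Gdnf was detected in a median of 38.5% of Sertoli-like cells per pool at E14.5–E16.5 and 22.7% at PND5–PND8, against 6.53% and 8.19% of interstitial-like cells. Without thinning the same shares were 60.3% and 41.7% against 17.8% and 8.78%. The order was not the same at every age, with thinned shares at PND10–PND14 of 9.26% of Sertoli-like cells and 13.3% of interstitial-like cells (1 pool), and at E11.5–E13.5 of 18.8% and 16.7%.

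Germ cells held little Gdnf at any stage. It was at 0 to 0.586 CPM in the pools up to E13.5, 0 to 2.91 CPM at E14.5–E16.5, 3.50 to 11.6 CPM in the 7 pools of E17.5–PND1 and 0.0401 to 5.84 CPM at PND2–PND4. The germ cell stages compared here and below join neighbouring time-points into 8 groups of 6 to 8 pools. E14.5–E16.5 was above E11.5–E13.5 by 2.65 (SE 1.05, adjusted p = 0.033, edgeR; 48.8% of 24351 genes passed, 32.7% higher and 16.1% lower, with a median over all genes of 0.52), a call that was lost with germ cells set by the sorting gate (2.05, adjusted p = 0.066), without the E13.5 pool of replicate 1 (2.42, adjusted p = 0.061) and without replicate 1 (2.09, adjusted p = 0.30) or replicate 2 (4.67, adjusted p = 0.060). The ranges of E14.5–E16.5 and E17.5–PND1 did not overlap, but their difference did not pass the test (2.37, SE 0.97, adjusted p = 0.065; 25.8% of genes passed, 9.93% higher and 15.9% lower, median of all genes 0.25; DESeq2 gave an adjusted p of 0.017). The summed Sertoli cell markers also stood higher in the germ cells of E17.5–PND1, at 95.6–345 CPM with a median of 214, than in those of E14.5–E16.5, with a median of 84.9 CPM, against a median of 5840 CPM in Sertoli-like cells. The summed interstitial markers had medians of 158 and 35.5 CPM in the same 2 stages, and the part of carried somatic RNA in the germ cell values was not tested. Fewer cells with a transcript and less of it per cell cannot be told apart in summed counts. In single germ cells thinned to 50000 UMIs, the median share with a Gdnf UMI was 2.16% at E14.5–E16.5 and 12.8% at E17.5–PND1. Without thinning it was 6.87% and 26.5%. Such shares also depend on the amount per cell.

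**Figure D1:**
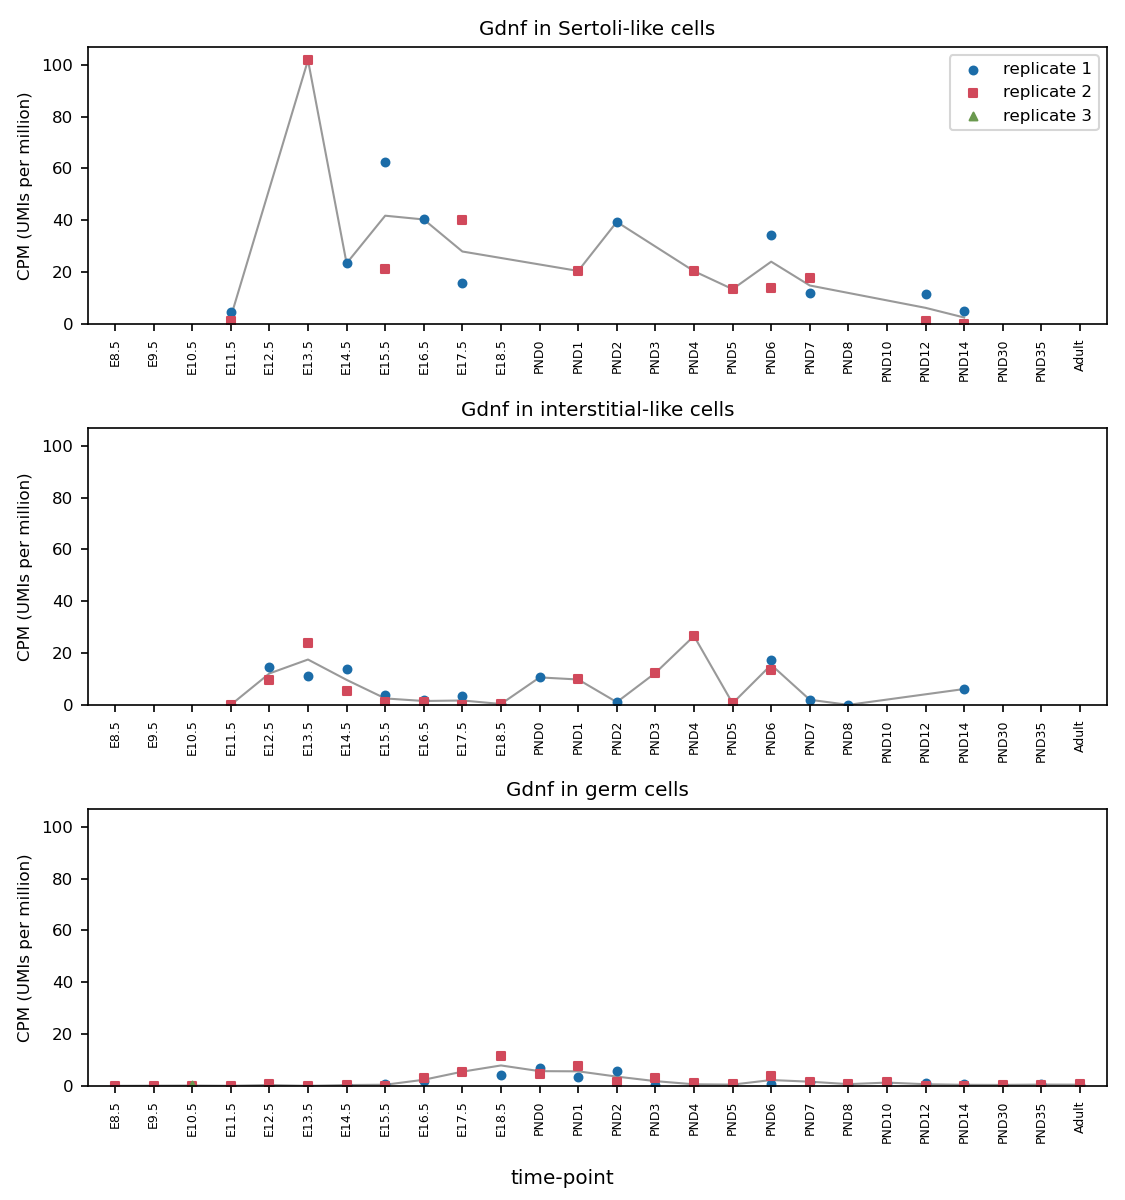
Gdnf in CPM (y axis) by time-point (x axis) in Sertoli-like, interstitial-like and germ cells, 1 point per pool. Sertoli-like pools reach 101.8 CPM at E13.5 and fall to 0–11.4 CPM at PND12–PND14, while germ cell pools stay at or below 11.6 CPM.

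The receptor genes were at or near 0 in migrating and early gonadal germ cells and reached their highest levels in the first days after birth. Ret (chr6:118151745-118197718, minus strand) encodes the signalling receptor. It stood between 0 and 0.978 CPM in the 6 germ cell pools of E8.5–E10.5, was at 0 CPM in 3 of the 4 pools of E11.5 and E12.5 (0.235 in the other), and was 15.6 and 1.96 CPM in the replicates of E13.5. A count of 0 in a germ cell pool allows up to 0.145 CPM. At E14.5 the values were 25 and 26.1 CPM, at E15.5 both 14.6, and from E16.5 to E18.5 they lay between 10.52 and 13.9. Ret was therefore detected in all fetal pools from E13.5 on, at a level that varied little between E15.5 and E18.5.

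Germ cells of E14.5–E16.5 held more Ret than those of E11.5–E13.5 (2.24, SE 0.90, adjusted p = 0.036, edgeR). Without replicate 2 this was 1.55 (adjusted p = 0.44). E11.5–E13.5 against E8.5–E10.5 gave 2.97 (SE 0.98, adjusted p = 0.039; 11.1% of genes passed, 6.38% higher and 4.72% lower), a difference that came to 0.26 (adjusted p = 1.0) without the E13.5 pool of replicate 1 and that no fit without either replicate called (0.75, adjusted p = 0.79, and 3.41, adjusted p = 0.36).

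Gfra1 (chr19:58235604-58455909, minus strand, overlapped on the plus strand by Gm16277) encodes the ligand-binding receptor. Its highest germ cell value before E17.5 was 3.25 CPM, in replicate 3 of E10.5, and its stage medians were 1.34 CPM at E8.5–E10.5, 0.501 at E11.5–E13.5 and 0.437 at E14.5–E16.5. No comparison among these 3 stages passed the test (-1.65, adjusted p = 0.28, and 0.18, adjusted p = 0.90, edgeR). From E14.5 to E18.5, then, Ret was at 10.52 to 26.1 CPM in pools in which Gfra1 was at 0.0449 to 1.62 CPM.

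Around birth the replicates of both receptor genes differed. Gfra1 was 0.531 to 1.6 CPM at E17.5 and E18.5, 15.9 and 3.59 CPM at PND0 (replicates 1 and 2), and 88.8 and 23.3 CPM at PND1. Ret was 46.1 and 12.9 CPM at PND0 and 132.2 and 50.2 CPM at PND1 in the same order. Replicate 1 was the higher at both days for both genes, and at PND1 its Gfra1 level was at the top of the PND2–PND4 range. Gfra1 rose from E14.5–E16.5 to E17.5–PND1 by 4.74 (SE 1.01, adjusted p = 0.00040, edgeR). Without the pools of PND0 and PND1 the Gfra1 difference was 0.48 (adjusted p = 0.76), and it missed the threshold without replicate 1 (2.78, adjusted p = 0.10) and without replicate 2 (6.37, adjusted p = 0.12). Ret differed by 0.79 over the same stages, and by -0.86 without PND0 and PND1, and did not pass. Counts of higher and lower genes there depended on the scaling, with 2418 higher and 3865 lower under trimmed-mean (TMM) scaling and 2986 and 2133 under the relative log expression (RLE) factors of DESeq2.

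At PND2–PND4 Gfra1 was 80.4 ± 6.14 CPM (SD, n = 6 pools), from 72.6 to 88.4. Ret was 106.6 to 209 CPM with a median of 158, highest at PND2 (208 and 209) and lower at PND4 (106.6 and 118.9). The 6 Gfra1 values were close together, whereas Ret spanned a wider range in the same pools. Against E17.5–PND1, Gfra1 was higher by 2.28 (SE 0.85, adjusted p = 0.034) and Ret by 2.22 (SE 0.84, adjusted p = 0.038, edgeR). In that comparison 33.6% of genes passed, 15.7% higher and 17.9% lower, the median of all genes being -0.26, and with RLE scaling 2512 genes were higher and 5796 lower (3831 and 4357 under TMM, median of all genes -0.53 under RLE). Without the PND1 pool of replicate 1 the 2 differences were 3.66 and 2.96, and without all PND0 and PND1 pools 6.63 and 4.02.

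Both receptor genes stood lower at each of the next stages, with no called change between neighbouring stages up to PND14. Across 2 steps, PND10–PND14 was below PND2–PND4 by a called difference for both genes. It was -3.63 (adjusted p = 0.0042) for Gfra1 and -2.80 (adjusted p = 0.020, edgeR) for Ret. Gfra1 went from 50.9 and 75.6 CPM at PND5 through 38.6 and 35.7 at PND6 to 14.8 and 8.92 at PND7 and 11.97 and 8.59 at PND8, and lay between 1.96 and 12.4 CPM at PND10–PND14. Ret went from 98.8 and 92.5 CPM at PND5 to 35 and 22.9 at PND8 and lay between 11.8 and 46.2 CPM at PND10–PND14. The mean of the replicates was lower at each later day from PND5 to PND8 for both genes, and the PND7 and PND8 ranges of Gfra1 overlapped. PND5–PND8 against PND2–PND4 gave -1.29 (adjusted p = 0.36) for Gfra1 and -1.27 (adjusted p = 0.37) for Ret, although the Ret ranges did not overlap (22.9–98.8 against 106.6–209 CPM); 4.94% of genes passed there, 1.26% higher and 3.69% lower. With the time-point in place of the stage as the factor, Ret, Bcl6b, Etv5, Etv4 and Lhx1 were called lower there and Gfra1 was not. That fit also called more genes over all than the 1204 called with the stage as factor, and its count is given with the alternatives below. PND10–PND14 against PND5–PND8 gave -2.34 (adjusted p = 0.072; DESeq2 0.027, without PND8 0.044) for Gfra1 and -1.53 (adjusted p = 0.26) for Ret, where 11.4% of genes passed, 9.10% higher and 2.28% lower.

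The receptor genes parted in the older testis. At PND30, PND35 and in adults, where spermatocytes and spermatids made up most of the cells picked, Ret was 0.243 to 0.660 CPM in 5 pools and 5.13 CPM in adult replicate 1, all below the lowest pool of PND10–PND14 (-3.96, SE 0.96, adjusted p = 0.00049, edgeR; 64.4% of genes passed, 33.9% higher and 30.5% lower; without replicate 2 -3.44, adjusted p = 0.071). Gfra1 was 32 and 20.4 CPM at PND30, 11.1 and 10.2 at PND35, and 2.68 and 16.51 in adults. Adult replicate 1 was the low pool for Gfra1 and the high one for Ret, and it gave no sum of round spermatid-like cells. The Gfra1 difference of 1.76 missed the threshold (SE 0.88, adjusted p = 0.077), and it was 2.34 (adjusted p = 0.021) with RLE scaling and 2.18 (adjusted p = 0.029) without adult replicate 1. RLE moved the split of all genes to 10288 higher and 5921 lower from 8266 and 7417 under TMM.

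**Figure D2:**
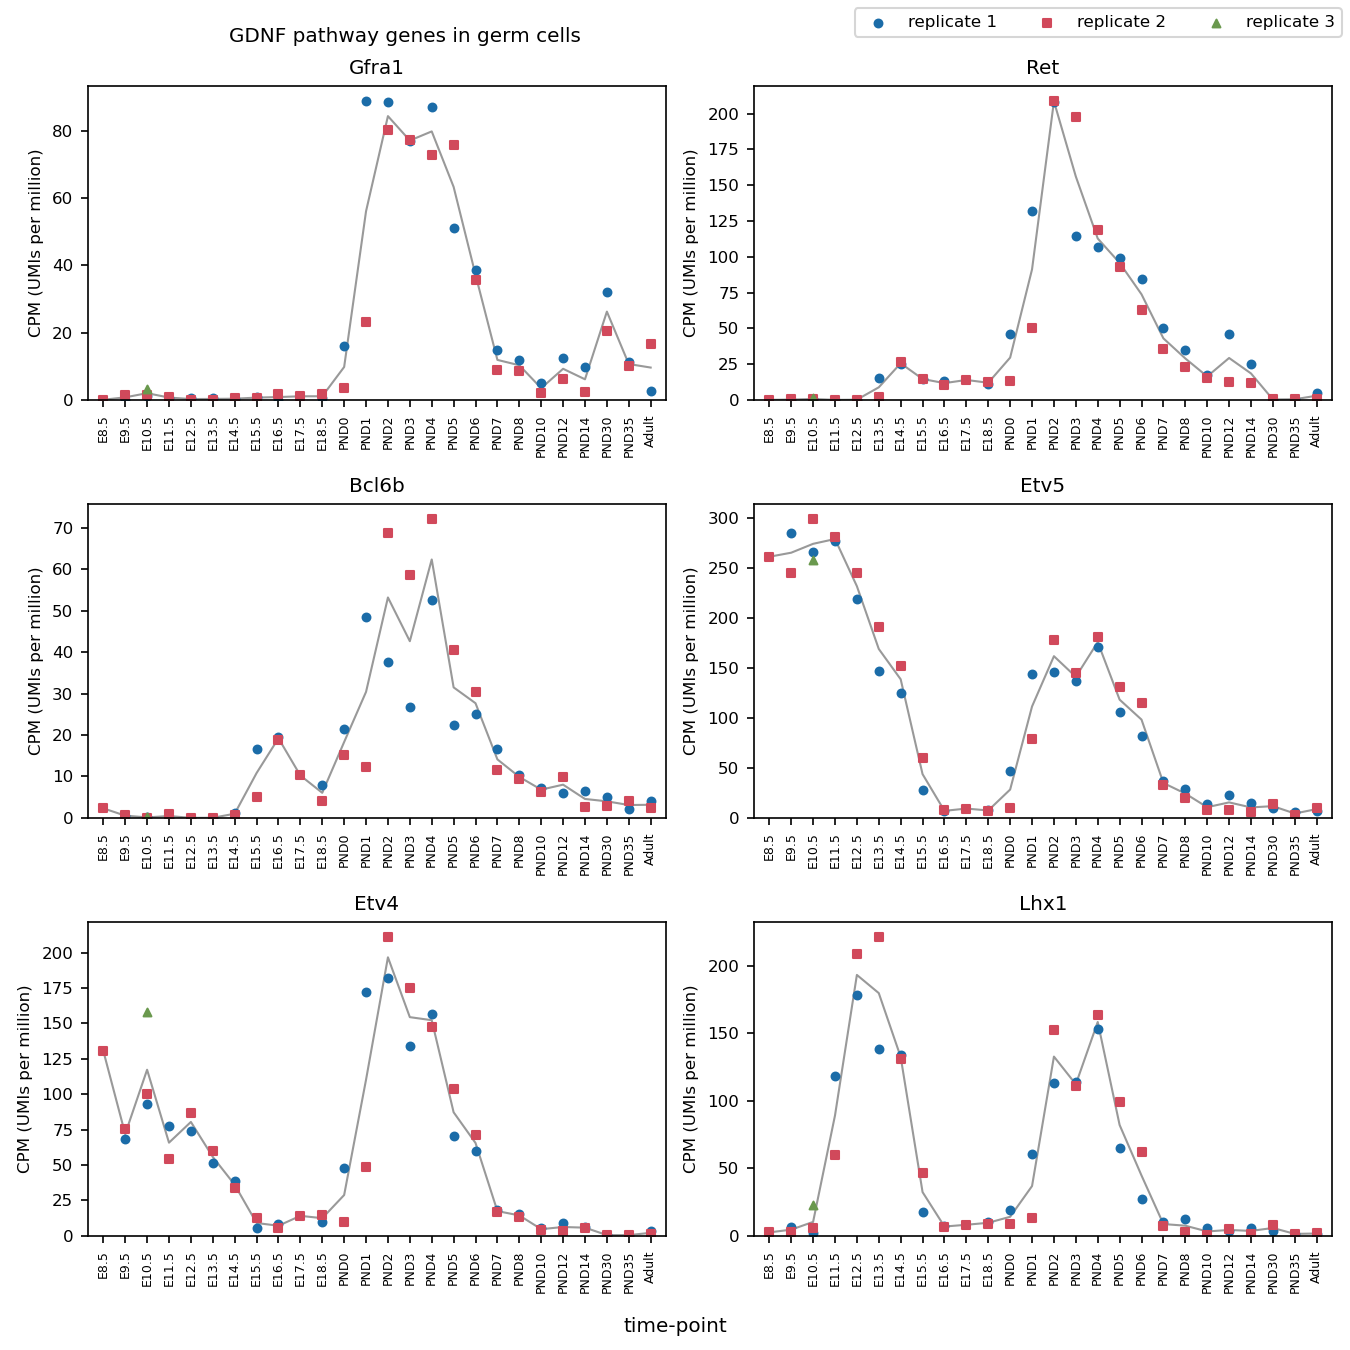
Levels of Gfra1, Ret, Bcl6b, Etv5, Etv4 and Lhx1 in germ cells, in CPM on a separate linear y axis for each gene, by time-point (x axis), with 1 point per replicate pool and a line through the mean of the pools. All 6 genes are high at PND2–PND4, and Etv5, Etv4 and Lhx1 also have an earlier fetal phase, Etv5 at 245–300 CPM at E8.5–E10.5 and Lhx1 at up to 221 CPM at E13.5.

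Among the target genes, Bcl6b (chr11:70224128-70229798, minus strand), which encodes a transcriptional repressor needed for full stem cell activity in culture, took a course of its own before birth. It was at or below 0.888 CPM in every germ cell pool of E9.5–E13.5, 1.19 and 0.797 CPM at E14.5, 16.6 and 5.05 at E15.5 and 19.6 and 18.8 at E16.5. Bcl6b rose by 5.49 from E11.5–E13.5 to E14.5–E16.5 (SE 0.93, adjusted p = 8.2e-06, edgeR). It was 10.2 CPM in the E17.5 pool, 7.92 and 4.15 CPM at E18.5, 48.5 and 12.3 CPM at PND1 and 26.7 to 72.1 CPM at PND2–PND4. The rise to PND2–PND4 was 1.90 (SE 0.72, adjusted p = 0.037; with RLE scaling 1.68, adjusted p = 0.067). Bcl6b was 9.44 to 40.5 CPM at PND5–PND8 and 2.03 to 5.09 CPM at PND30–adult, with no called change between neighbouring stages after PND4. PND10–PND14 against PND2–PND4 gave a called difference of -2.96 (adjusted p = 0.0048, edgeR).

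Etv5 (chr16:22381309-22439719, minus strand) encodes an ETS factor required to keep spermatogonial stem cells after birth. It was at 245 to 300 CPM in all 6 germ cell pools of E8.5–E10.5, and at 277 and 281 CPM at E11.5, when neither receptor gene passed 0.767 CPM. E11.5–E13.5 as a whole did not differ from E8.5–E10.5 beyond the spread (-0.24, adjusted p = 0.94). It was lower at each later fetal time-point up to E16.5, with 147.1 and 191 CPM at E13.5, 125.5 and 152 at E14.5, 27.6 and 59.9 at E15.5 and 6.52 and 7.52 at E16.5, and it was 6.78 to 9.30 CPM in the 3 pools of E17.5 and E18.5. E14.5–E16.5 against E11.5–E13.5 gave -2.01 (SE 0.64, adjusted p = 0.0090, edgeR), with an overlap of the ranges at E14.5 and with no call without replicate 1 (adjusted p = 0.11) or replicate 2 (adjusted p = 0.089). E17.5–PND1 against E14.5–E16.5 gave -1.07 (adjusted p = 0.18), and -1.62 (adjusted p = 0.037) without the PND1 pool of replicate 1.

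Etv5 came back around birth. It was 46.7 and 10.0 CPM at PND0, 143.9 and 79.3 CPM at PND1 and 137.1 to 181 CPM at PND2–PND4. Replicate 1 was again the higher of the perinatal pools. The rise to PND2–PND4 was 2.14 (SE 0.61, adjusted p = 0.0065), and 4.72 without the pools of PND0 and PND1. Etv5 then went from 105.99 and 130.8 CPM at PND5 to 29.2 and 19.5 at PND8 and to 6.20–22.7 CPM at PND10–PND14 (-2.55 for PND10–PND14 against PND5–PND8, SE 0.64, adjusted p = 0.0048, edgeR).

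Etv4 (chr11:101769742-101785371, minus strand), the close relative of Etv5, took a similar course (Pearson r = 0.89 with Etv5 over the 51 germ cell pools). It was 68.6 to 158 CPM at E8.5–E10.5 and 51.8 to 86.9 CPM at E11.5–E13.5, then 38.7 and 33.5 CPM at E14.5 and 5.56 to 12.6 CPM at E15.5 and E16.5. The ranges of E11.5–E13.5 and E14.5–E16.5 did not overlap (-2.15, SE 0.61, adjusted p = 0.0036; without replicate 2 -2.03, adjusted p = 0.12). It was 172 and 48.3 CPM at PND1 and 134.02 to 211 CPM at PND2–PND4 (2.12, SE 0.58, adjusted p = 0.0044).

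After PND4, Etv4 was 13.6–103.96 CPM at PND5–PND8, below all pools of PND2–PND4, a difference just above the threshold (-1.74, SE 0.55, adjusted p = 0.050, edgeR; RLE scaling 0.025, DESeq2 0.0082). It fell by 3.07 to 3.28–9.23 CPM at PND10–PND14 (SE 0.62, adjusted p = 0.00046) and by a further 2.14 to 0.246–3.11 CPM at PND30–adult (SE 0.61, adjusted p = 0.0025). Neither pair of ranges overlapped.

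Lhx1 (chr11:84518284-84525535, minus strand), a LIM homeobox gene, had a fetal phase of its own. It was 2.47 to 6.22 CPM in 5 pools of E8.5–E10.5 and 22.5 CPM in replicate 3 of E10.5, then 118.1 and 60 CPM at E11.5, 178 and 208 at E12.5, and 138.05 and 221 at E13.5. All pools of E11.5–E13.5 were above all pools of E8.5–E10.5 (4.44, SE 0.84, adjusted p = 0.00028, edgeR; without replicate 2 3.73, adjusted p = 0.11). It was 133.7 and 131.3 CPM at E14.5, 17.9 and 46.8 at E15.5 and 6.96 and 6.84 at E16.5, so its levels, like those of Etv5, were lower after E14.5. E14.5–E16.5 as a whole missed the threshold (-1.60, adjusted p = 0.069), while E17.5–PND1 against E14.5–E16.5 passed (-2.17, SE 0.72, adjusted p = 0.022; with RLE scaling -1.78, adjusted p = 0.061).

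Lhx1 was 110.7 to 164 CPM at PND2–PND4, above all of E17.5–PND1 (3.14, SE 0.74, adjusted p = 0.0014). It was 65.2 and 98.9 CPM at PND5, 27.2 and 62.1 at PND6 and 10.0 and 7.43 at PND7. At PND10–PND14 it was 0.955 to 6.16 CPM (-3.31, SE 0.78, adjusted p = 0.0026, edgeR). Lhx1os, a transcript annotated on the opposite strand that starts close to the Lhx1 start, was the gene whose germ cell course was most like that of Lhx1 (Pearson r = 0.94 over 51 pools). Whether the counting used strand is not given in the sources used here, so reads of the pair may not be separated.

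The calls of the 6 genes that rose into PND2–PND4 were lost, with those of all other genes, when the pools numbered replicate 2 were left out. A replicate number marks no animal shared between time-points, and that fit has fewer pools per stage. Without the pools of replicate 2 no gene of the genome passed the edgeR test in that comparison (4484 had an unadjusted p under 0.05), and the 6 folds ranged from 0.76 to 2.25 with adjusted p from 0.23 to 0.64. Leaving out the PND1 pool of replicate 1 instead gave 2.45 to 3.88 with all 6 called. The same held for the 3 declines into PND10–PND14, where no gene passed without replicate 2 (1321 at an unadjusted p under 0.05) and the values were -2.59 for Etv4, -2.46 for Lhx1 and -1.94 for Etv5, each with an adjusted p of 0.87.

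In order of their stage means, neighbours mostly did not differ beyond their spread. No neighbouring pair in the order of Gfra1, Lhx1 or Gdnf passed the test. For Ret the 1 pair that did was E14.5–E16.5 over E11.5–E13.5, for Bcl6b PND30–adult over E8.5–E10.5 (2.53, adjusted p = 0.0041) and for Etv5 E17.5–PND1 over PND10–PND14 (1.51, adjusted p = 0.037). For Etv4 they were E14.5–E16.5 over PND10–PND14 (1.79, adjusted p = 0.017) and PND10–PND14 over PND30–adult. So for Etv5 the fetal maximum at E8.5–E10.5, E11.5–E13.5 and PND2–PND4 could not be placed in order, and for Lhx1 neither could E11.5–E13.5 and PND2–PND4.

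The number of Etv5 UMIs per Gfra1 UMI in the same germ cells was high in early and mid fetal pools and lower by the end of fetal life. Where Gfra1 had enough counts, the ratio was 79.4 to 460 in pools of E9.5–E14.5. It was 31.8 and 130.6 at E15.5, 4.65 in the E16.5 pool that gave one, 8.78 at E17.5 and 15.1 and 4.24 at E18.5. It was 1.36 to 3.79 in all 24 pools of PND0–PND14 and 0.242 to 2.73 at PND30–adult. The ranges up to E14.5 and from PND0 on did not overlap, and the ratio carries the counting properties of both transcripts, so it is comparable between pools and not a ratio of molecules.

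Over single germ cells of PND2–PND8 the genes varied together. Over cells within a pool, CPM of Gfra1 and Etv5 had a median Spearman rho of 0.41 over 13 pools (0.20 to 0.70), Etv5 and Etv4 0.41 (0.15 to 0.65), Ret and Etv5 0.38, Gfra1 and Etv4 0.37 (0.12 to 0.60) and Gfra1 and Ret 0.32 (0.09 to 0.61). Some pairs differed by age. Gfra1 and Etv5 had 0.20 to 0.27 in the pools of PND2–PND4 and 0.38 to 0.70 in those of PND5–PND8. Ret and Etv5 had 0.01 to 0.29 and 0.37 to 0.70 in the same order. For Bcl6b and Etv4 the ranges of the 2 ages overlapped, at 0.14 to 0.41 and 0.24 to 0.37. The lowest medians were 0.20 (0.01 to 0.38) for Gfra1 with Bcl6b and 0.21 for Ret with Bcl6b. Ret and Bcl6b were below 0 in 1 pool (-0.16), and the other pairs were above 0 in 13 of 13. Each gene's own correlation with the UMI total of the cell had a median of 0.13 to 0.23, and cells of a pool share libraries and depth, so these are descriptions and no p-value is given.

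**Figure D3:**
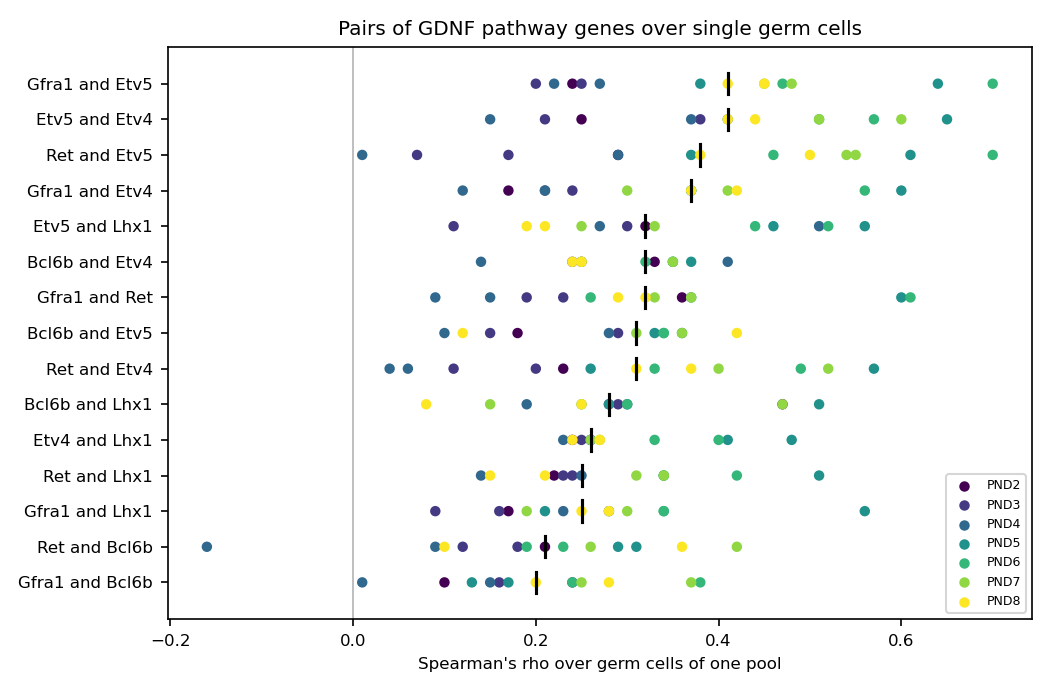
Median Spearman rho over single germ cells for each pair of GDNF pathway genes in 13 pools of PND2–PND8, with the lowest and highest pool. Medians run from 0.20 (Gfra1 with Bcl6b) to 0.41 (Gfra1 with Etv5, and Etv5 with Etv4).

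Thinned to equal depth, most germ cells of PND2–PND4 held the transcripts of the 6 receptor and target genes. At 50000 UMIs per cell, the median share with a UMI was 87.4% for Gfra1 (76.9% to 93.6% over pools, and 96.3% unthinned), 96.9% for Ret, 98% for Etv5, 97.6% for Etv4, 81% for Lhx1 and 74.9% for Bcl6b, and 3.81% for Gdnf. In the Sertoli-like cells of the same stage the thinned shares were 12.7% for Gfra1, 48.9% for Ret and 42.1% for Etv4, over 2 pools, with a median depth of 104589 UMIs against 272191 in germ cells. By PND5–PND8 the germ cell share was 41.8% for Gfra1 and 24.3% for Lhx1. In E8.5–E10.5 germ cells it was 1.10% for Gfra1 and 0.549% for Ret but 100% for Etv5, so at this stage the Etv5 transcript was in cells in which the receptor transcripts were not detectable at this depth.

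Between somatic and germ cells of the same pools, the receptor and target genes other than Etv5 were lower in somatic cells. In this comparison 73.6% of 15685 genes passed, 29.6% higher and 44% lower in somatic cells. Ret differed by -3.45 (SE 0.42, adjusted p = 3.3e-09, lower in 30 of 33 pools), Lhx1 by -4.59 (SE 0.37, adjusted p = 7.7e-14, lower in 33 of 33) and Etv4 by -2.20 (SE 0.27, adjusted p = 3.3e-09, lower in 31). Gfra1 differed by -2.42 (SE 0.53, adjusted p = 0.00011, lower in 26) and Bcl6b by -2.39 (SE 0.49, adjusted p = 4.7e-05, lower in 28). With classes set by the sorting gate, which also leaves only pools of E11.5–E18.5, Bcl6b gave -1.61 (adjusted p = 0.12). Etv5 gave -0.66 (SE 0.31, adjusted p = 0.054, lower in 21) and was at 9.32 to 81 CPM in Sertoli-like cells and 4.14 to 95.4 CPM in interstitial-like cells. Germ cell markers summed to 62.2–642 CPM in Sertoli-like pools and 65.3–585 CPM in interstitial-like pools, against 1106–4058 CPM in germ cell pools, and their part in the somatic values of these genes was not tested.

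Somatic Ret was mostly near 0 before birth and higher after it. Sertoli-like Ret was at most 1.74 CPM up to E17.5 and 0 to 25 CPM after birth, and interstitial-like Ret was at most 2.12 CPM up to PND0 outside 1 pool and 3.45 to 14.8 CPM from PND1 on. The exception was replicate 1 of E11.5, with 82.1 CPM of Ret in interstitial-like cells, all 179 UMIs of which came from 1 of its 13 cells. The 7 summed germ cell markers had a median of 155 CPM (62.2 to 357) in Sertoli-like pools before birth and 349.6 CPM (163 to 642) from PND0 on, and 183 CPM (65.3 to 399) and 295 CPM (186 to 585) in interstitial-like pools. Ddx4 was at 5.43–42.3 before and 26.5–100.6 CPM after birth in Sertoli-like and at 4.95–46.4 and 27.3–85.7 CPM in interstitial-like pools, while Ret in the germ cells of PND2–PND4 was at 106.6 to 209 CPM, and the part of carried germ cell RNA in somatic Ret was not tested. Between Sertoli-like and interstitial-like cells Etv5 (0.43, adjusted p = 0.22), Etv4 (0.00, adjusted p = 1.00) and Ret (-0.21, adjusted p = 0.84) did not pass the test, and Gfra1, Bcl6b and Lhx1 had too few counts to be tested.

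In the late germline the transcripts of Gfra1, Lhx1 and Etv5 were higher in round spermatid-like than in spermatocyte-like cells. For Lhx1 this lay mainly in the smaller round spermatid-like cluster. Lhx1 was at 0.601 CPM in the cluster of 575 cells and 27.2 CPM in that of 263 cells. Spermatocyte-like clusters held 0 to 0.499 CPM of it. In the same order Etv5 was at 10.03 and 45.7 CPM and Gfra1 at 43.96 and 47.8 CPM. Differences between these clusters were not tested. The names follow markers, and of the PND30 cells sorted as 4N 43 of 286 lay in round spermatid-like clusters and of those sorted as 1N 28 of 286 in spermatocyte-like ones. Gfra1 was 49.7 and 50.9 CPM in the round spermatid-like cells of PND30, 39.7 and 36 at PND35 and 39.2 in adult replicate 2, against 2.80 to 4.47 CPM in the spermatocyte-like cells of these 5 pools. Lhx1 was 5.06 to 21.7 against 0.266 to 0.60 CPM, and Etv5 6.83 to 34.2 against 1.19 to 2.85 CPM. None of these ranges overlapped, and here as above the share of all genes without overlap was not counted. The differences were 3.76 for Gfra1 (SE 0.20, adjusted p = 4.9e-08), 4.28 for Lhx1 (SE 0.30, adjusted p = 4.0e-07) and 3.48 for Etv5 (SE 0.29, adjusted p = 1.9e-06, edgeR with the pool as block), where 73.4% of 20717 genes passed, 38% higher and 35.4% lower in round spermatid-like cells.

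The other 4 genes did not pass the test. Ret was 0.327 to 1.39 CPM in round spermatid-like and 0.107 to 0.741 CPM in spermatocyte-like cells of these pools (1.21, adjusted p = 0.058), Gdnf differed by 1.17 (adjusted p = 0.064), Bcl6b by -0.39 (adjusted p = 0.14) and Etv4 by -0.61 (adjusted p = 0.21). After thinning, a median of 61.1% of round spermatid-like cells held a Gfra1 UMI and 1.35% a Ret UMI (80.1% and 5.48% without thinning), against 10.1% and 1.10% of spermatocyte-like cells. Comparing 1N and 4N cells in place of the clusters, which also limits the pools to PND30, Etv5 differed by 1.37 (adjusted p = 0.056).

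**Figure D4:**
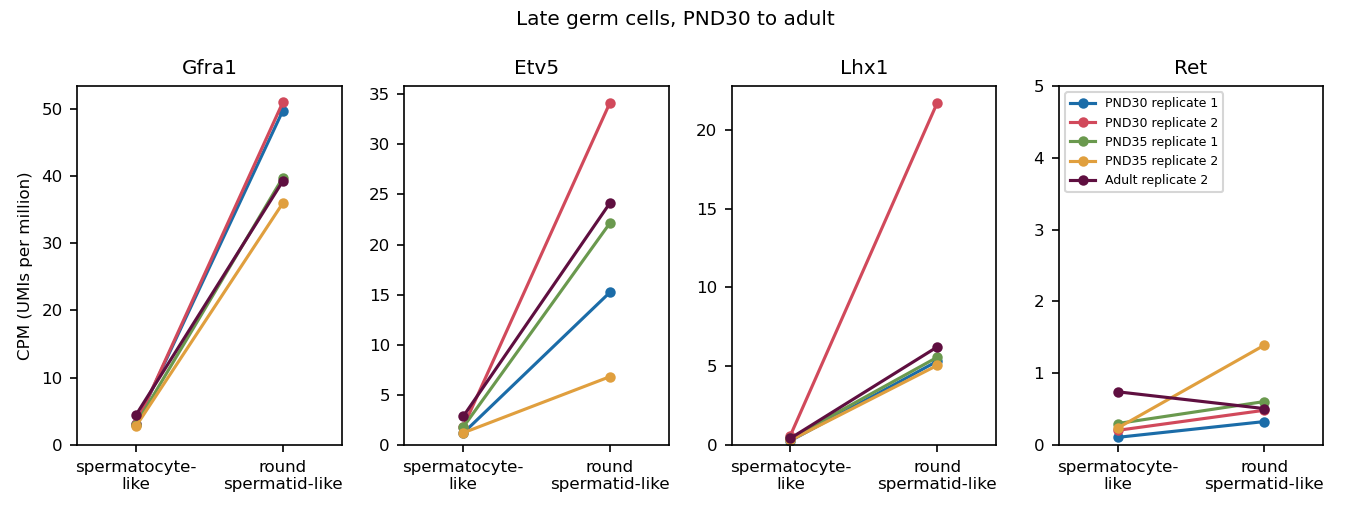
Levels of Gfra1, Etv5, Lhx1 and Ret in spermatocyte-like and round spermatid-like cells from PND30 to adult, in CPM on the y axis, 1 point per pool. Gfra1 is at 36–50.9 CPM in round spermatid-like and 2.80–4.47 CPM in spermatocyte-like cells, while Ret is at or below 1.39 CPM in both.

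The wider pathway was read from a list of 37 genes, 9 further ligand, receptor and coreceptor genes, 12 adaptor and kinase genes, 7 other GDNF-responsive genes and 9 output genes of ERK signalling. At E14.5–E16.5 against E11.5–E13.5, the step at which Etv5 and Etv4 fell, 7 of the 9 ERK output genes were lower and none higher, where 16.1% of all genes were lower and 32.7% higher, with a median of -1.65 beside 0.52 for all genes. Of the 9 ligand and receptor genes 4 were higher and none lower at that step (median 1.68), of the 12 adaptors 6 were higher and 3 lower, and of the 7 responsive genes 1 was higher and 2 lower. Over the 4 lists 23 of 37 passed, beside 48.8% of all genes. At the step into PND2–PND4, 3 of the 7 responsive genes and 3 of the 9 ERK output genes were higher (2 of the latter lower), beside 15.7% of all genes higher and 17.9% lower, with medians of 1.34 and 0.99 beside -0.26 for all genes. Of the ligand and receptor genes 2 were higher and 1 lower (median -0.37) and of the adaptors 1 was higher and 1 lower (median 0.06).

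The ERK output genes themselves show the size of these steps. Dusp6, which encodes a phosphatase that dampens ERK, was 167 CPM at E8.5, 81.7 and 81.3 at E12.5, 3.55 and 3.44 at E16.5, 186 and 196 at PND4 and 0.106 and 0.115 at PND30. It rose by 2.25 into PND2–PND4 (adjusted p = 0.023) and Spry4, another feedback inhibitor of receptor tyrosine kinases, by 2.63 (adjusted p = 0.0066, edgeR). The lower output genes at that step, named after their values were seen, were Etv1 (-1.70, adjusted p = 0.019) and Spry2 (-1.20, adjusted p = 0.017). Outside the output group the 2 largest changes past the threshold there were also downward, in Gfral, which encodes the receptor for GDF15 (-6.83, adjusted p = 0.00051), and Grb10, an adaptor of receptor tyrosine kinases (-2.29, adjusted p = 0.0041). Gfral was barely detected, at 0 to 6.33 CPM (median 2.72) at E17.5–PND1 and 0 to 0.0791 CPM at PND2–PND4. At PND10–PND14 none of the ERK output genes was higher than at PND5–PND8 and 4 were lower (median -1.13), beside 9.10% of all genes higher and 2.28% lower, among them Spry4 (-3.30) and Dusp4 (-1.96). At PND30–adult 7 of the 9 were lower and 1 higher, Dusp4 being the higher one (4.70), beside 33.9% of all genes higher and 30.5% lower.

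**Figure D5:**
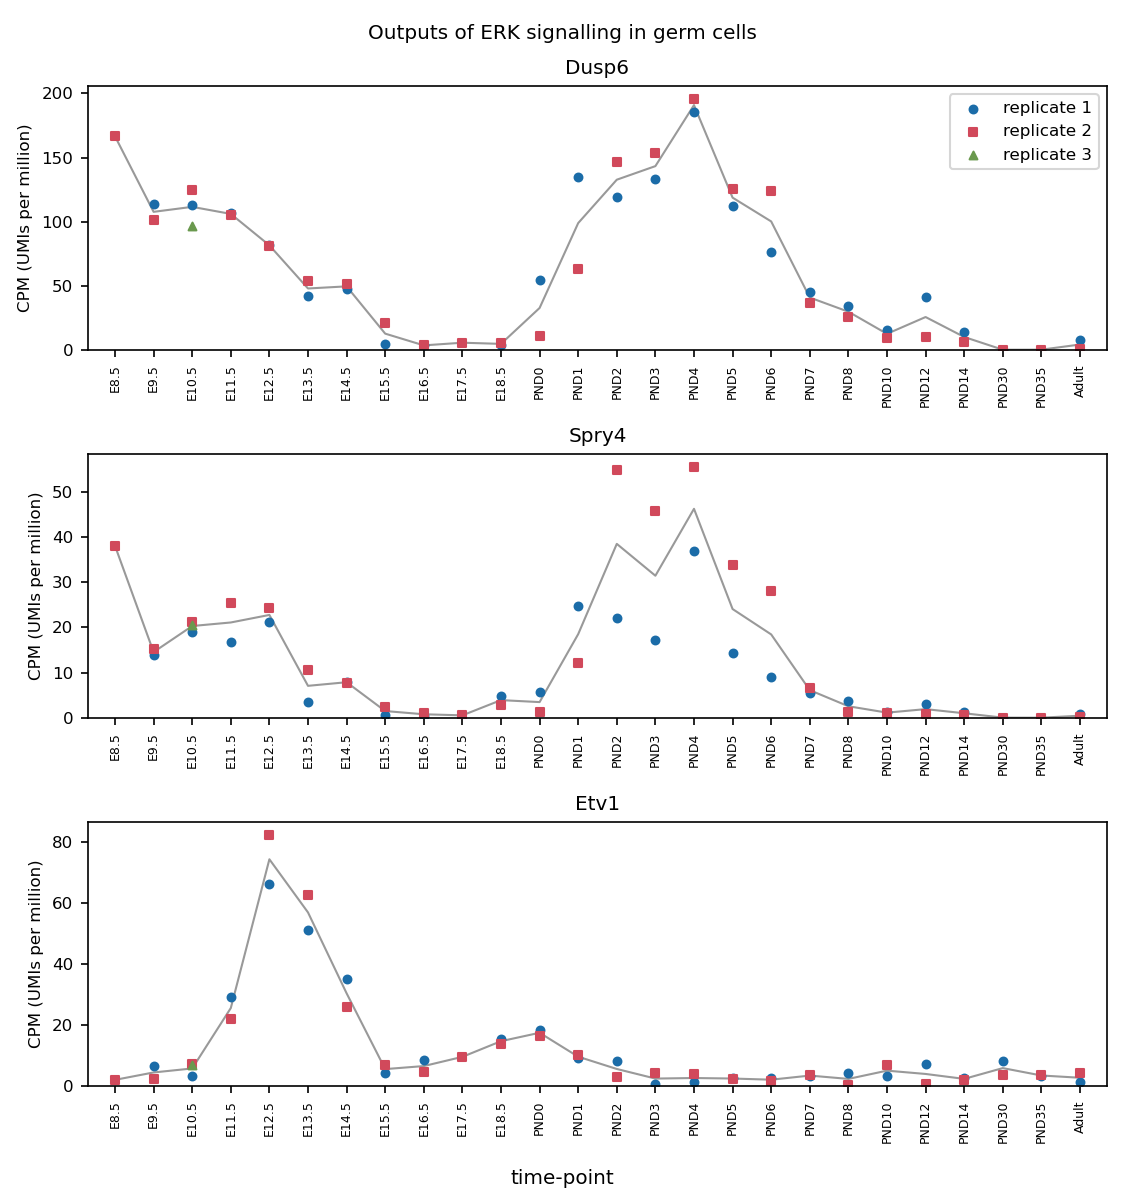
Levels of output genes of ERK signalling in germ cells, in CPM on the y axis, by time-point, with 1 point per replicate pool. Dusp6 goes from 167 CPM at E8.5 to 3.55 and 3.44 CPM at E16.5 and back to 186 and 196 CPM at PND4.

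Of the 9 ligand and receptor genes, 5 were higher and 1 lower at PND30–adult against PND10–PND14, where 64.4% of all genes passed. Among the higher ones were Gfra2, the receptor for neurturin (5.83), Artn, which encodes artemin (4.51), and Sdc3, which encodes a heparan sulphate proteoglycan that binds GDNF (4.07). Of the 12 adaptor and kinase genes 1 was higher and 7 lower there, beside 33.9% of all genes higher and 30.5% lower. Between Sertoli-like and interstitial-like cells, Gfra2 (-3.84), Ncam1, an alternative GDNF receptor (-2.80), Grb10 (-3.43) and Spry1 (-3.85) were lower in Sertoli-like cells, and 3 of 4 ligand and receptor genes tested were lower and none higher, beside 18.1% of all genes lower and 17.3% higher.

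Over the 51 germ cell pools, the genes most like Etv4 included a pair from the ERK output group, and those most like the other genes included none. The 3 genes with the highest Pearson r of log2(CPM + 1) to Etv4 were Spry4 (0.95), Arpc4 (0.95) and Dusp6 (0.94). For Etv5 they were Fzd7 (0.91), Snrpn (0.90) and B4galt1 (0.90). For Gfra1 they were Smoc2 (0.91), Ick (0.85) and Fuca1 (0.85), for Ret Sphk1 (0.96), Aebp1 (0.95) and Ccdc141 (0.95), and for Bcl6b Gm44196 (0.93), Mapk12 (0.92) and AI413582 (0.91). After Lhx1os, Lhx1 was most like Krt222 (0.77) and Pdlim1 (0.76). Over 34 somatic pools Gdnf was most like Bok (0.85), Cenpi (0.77) and Foxs1 (0.76). Pools of neighbouring time-points share stages and the values share the scaling, so these are measures of likeness only.

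By the same measure the receptors and Etv5 were not alike over development. Gfra1 and Etv5 had r = 0.03 and Ret and Etv5 r = 0.02 over the 51 pools, while Ret and Bcl6b had 0.84, Gfra1 and Bcl6b 0.76 and Gfra1 and Ret 0.65. In the fetal pools up to E12.5 Etv5 was at 219–300 CPM with both receptor genes at or below 3.25 CPM, and at PND2–PND4 all 3 were high.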

How the data were processed

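The data are single-cell STRT-seq UMI counts of mouse germ and gonadal cells. The authors trimmed reads, extracted barcodes and UMIs with UMI-tools, aligned to mm10 with STAR, assigned reads with featureCounts of Subread and deposited 1 table of raw UMI counts per gene and cell, with a table giving each cell's time-point, replicate and gate. The submitters' processing notes also name CASAVA 1.8. The strand setting of the counting is not given in the sources used here, so reads of Gfra1 and of Gm16277, which overlaps it, may not be separated. The GEO labels alone put none of the 147 libraries in a group, so each cell was placed by the authors' cell table. Columns of 2808 cells (other genotypes and earlier stages) were not used.

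Cells with over 2000 genes and 10000 to 1000000 UMIs were kept. They were clustered in Python 3.11.15 (log of counts scaled to 100000, 1000 variable genes, 30 principal components, 20 neighbours, Leiden in igraph 0.11.9 at resolution 1.0, 34 clusters), leaving out 117 genes, among them the 7 described and the pathway lists. Clusters took their class from marker genes; the check of leading genes was written after the clusters were seen. Cells were picked or sorted singly and no doublet caller was run. Of 1363 sorted positive cells of E11.5–E18.5, 1245 lay in germ cell clusters, and of 572 negative cells 559 lay in somatic ones. Counts were summed per class and pool (at least 10 cells), and CPM is UMIs per 1000000 of that sum.

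Sums were tested with edgeR 4.0.16 (R 4.3.3, TMM, quasi-likelihood test, Benjamini-Hochberg adjustment over all genes tested, threshold 0.05), stages in 1 fit over all germ cell pools and classes with the pool as block. DESeq2 1.42.0, RLE factors, no filter, a minimum of 20 cells, the time-point as factor, the sorting gate and leaving out replicates were alternatives, and the fits were tested on simulated data. Fold changes are log2 differences of the first group minus the second. Single values were compared by exact permutation tests (scipy 1.17.1). The study states at least 2 independent biological replicates per time-point; per its sample list, a replicate of a time-point is a set of embryos or gonads pooled before birth and 1 male after it, and a replicate number marks no animal shared between time-points, so p-values measure the spread between pools. Pools of 1 stage also differ in age.

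All 7 genes are named in every comparison. Of the pathway lists at most the 4 largest changes past the threshold are named, and of the most alike genes the 3 with the highest Pearson r of log2(CPM + 1) with a mean of at least 10 CPM, for genes with a mean of at least 5 CPM. Genes and lists were chosen with earlier results of these data known.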

Additional observations from a re-analysis of the deposited data

Results flagged for a closer look

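Of 77 groups of 4 to 10 pools, 16 had a pool far from the others by Dixon's criterion. Chance meets it in about 1 in 20 groups of normal values from a single distribution. Pools of a stage differ in age and CPM was not transformed, so that rate need not hold here. In germ cells of E17.5–PND1, replicate 1 of PND1 stood apart in 5 genes, with Gfra1 at 88.8 CPM (other pools 0.531–23.3), Ret at 132.2 CPM (11.2–50.2), Bcl6b at 48.5 CPM (4.15–21.4), Etv4 at 172 CPM (9.89–48.3) and Lhx1 at 60.7 CPM (8.20–19.4). Elsewhere in germ cells Ret was at 15.6 CPM in replicate 1 of E13.5 (other pools of its stage 0–1.96) and at 5.13 CPM in adult replicate 1 (0.243–0.660). Lhx1 was at 22.5 CPM in replicate 3 of E10.5 (2.47–6.22) and at 8.27 CPM in replicate 2 of PND30 (1.04–3.4).

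In Sertoli-like cells Gdnf was at 34.1 CPM in replicate 1 of PND6 (others of PND5–PND8 12.1–17.6), and in interstitial-like cells at 14 CPM in replicate 1 of E14.5 (1.07–5.27). Interstitial-like Ret was at 82.1 CPM in replicate 1 of E11.5 (0–0.734), where 1 cell held every Ret UMI, at 6.75 CPM in replicate 2 of PND1 (0–2.12) and at 14.8 CPM in replicate 1 of PND7 (3.45–6.39). Interstitial-like Bcl6b was at 8.32 CPM in replicate 2 of E17.5 (0.624–2.53) and Etv5 at 4.14 CPM, the low value, in replicate 2 of E16.5 (14.7–20.6).

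Cells in the unnamed clusters held 8 levels above the highest pool of classed cells of the same time-point. Such cells entered the comparisons only in an alternative, which kept sorted positive cells of unnamed clusters with at least 6 germ cell markers. Lhx1 was at 37.5 CPM in 23 cells of E10.5 replicate 3 (highest classed pool 22.5), at 15.4 CPM in 48 cells of E8.5 replicate 1 and at 9.93 CPM in 48 cells of E8.5 replicate 3 (highest classed pool 2.57). Bcl6b was at 25.4 CPM in 46 cells of E17.5 replicate 1 (highest classed pool 10.2) and at 0.487 CPM in E10.5 replicate 3 (0.214). Etv4 was at 110.97 CPM in E11.5 replicate 1 (77.4) and at 16.7 CPM in E17.5 replicate 1 (14.1), and Ret was at 0.866 CPM in E8.5 replicate 3, where the classed pool held none.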

How the results depend on the processing

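Of 980 values of the 7 genes under the alternatives, 902 kept their side of the threshold, 34 lost the call and 44 gained one. No value that passed the test with all pools or under the alternative changed sign, while differences that passed in neither did in part, among them Ret and Etv4 at E17.5–PND1 (-0.86 and -0.88 without PND0 and PND1). Of the 34 lost calls, 24 came from leaving out a replicate number. The alternatives that left out the pools of PND8, of PND0 and PND1, of E11.5, or the single pools PND2, PND1, E13.5 and adult of replicate 1, and the one that kept sorted cells of unnamed clusters, were chosen after seeing the data.

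The number of genes called moved more. Leaving out a replicate number or 1 of those single pools gave 1.2e+02 to 3522 calls at E11.5–E13.5 (2703 with all pools), 3528 to 12925 at E14.5–E16.5 (11884), 3 to 7391 at E17.5–PND1 (6283), 0 to 9578 at PND2–PND4 (8188), 0 to 1868 at PND5–PND8 (1204), 0 to 3583 at PND10–PND14 (2771), 8433 to 17135 at PND30–adult (15683) and 1821 to 2687 between Sertoli-like and interstitial-like cells (4046). The counts of 0 came without replicate 2 from edgeR, the tool run there, with 4484, 1624 and 1321 genes at an unadjusted p under 0.05. With the time-point as factor there were 9980 calls at E17.5–PND1 and 2610 at PND5–PND8, and without PND0 and PND1 3323 at E17.5–PND1. PND5–PND8 had 2010 with DESeq2, 452 without PND8 and 528 without the PND2 pool of replicate 1, and PND10–PND14 4342 without PND8. Somatic against germ cells had 18275 without a filter (11543), Sertoli-like against interstitial-like 2523 with at least 20 cells, and 1N against 4N cells, which are of PND30 alone, 6158 (15205 by cluster over PND30–adult). The median Gfra1 level of PND2–PND4 was 68.6 CPM with TMM scaling (78.7 unscaled).

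Replicate numbers did not pair the pools: over 23 pairs of neighbouring time-points the correlation of same-numbered deviations ran from -0.47 to 0.85 (median 0.03; 10 above 0.1). With the replicate number as a block, the stage comparisons had 2640, 11927, 6306, 8208, 1166, 2551 and 15760 calls in order of age, and no call of the 7 genes changed. Small somatic sums limit their values, since a count of 0 allows up to 5.14 CPM there and 0.145 CPM in germ cells.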
